A study of Rattus norvegicus with 4 samples.

Results

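The cadherins and protocadherins described here are the genes whose symbol is Cdh followed by a number or begins with Pcdh, taken once per Ensembl gene identifier and kept where the counts of the 4 libraries summed to at least 40. The rule kept 56 of the 21648 gene identifiers in the count table: 11 cadherins and 45 protocadherins, of which 35 belong to the alpha, beta and gamma clusters and 10 stand alone in the genome. Libraries of total RNA were made from E18 rat cortex neurons, sold by a commercial supplier, after treatment with topotecan (2 libraries) or with DMSO (2 libraries). Topotecan inhibits topoisomerase I, the enzyme that relieves twisting of DNA ahead of the transcribing polymerase, and was used to lower the expression of long genes. DMSO served as the control. Cells of both groups were first plated in medium for neural induction and later grown in a supplemented neuronal medium. The sources used here do not give the strain, the dose of topotecan or the length of treatment, and the labels do not say whether the duplicates came from separate cultures, so p-values measure the spread between these libraries, which may be technical.

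Cadherins are membrane proteins whose extracellular repeats bind calcium and hold cells together, mostly by binding the same cadherin on the facing cell, while their tails are tied to actin through catenins. Non-clustered protocadherins share the repeats but not the catenin-binding tail, and take part in the sorting of neurons, in axon growth and in the shaping of synapses. Clustered protocadherins are expressed in differing combinations in single neurons, which lets the branches of a neuron tell themselves from those of its neighbours. In the alpha and gamma clusters each variable exon has its own promoter and is spliced to constant exons shared by the cluster, whereas beta genes are single-exon genes.

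The libraries held 31181382 and 25459488 counts under topotecan, against 27347410 and 22957786 under DMSO. The 56 genes took 0.120% and 0.130% of the counts in the topotecan libraries, and 0.203% and 0.225% in the DMSO libraries. Levels are given as CPM, counts per 1000000 library counts after TMM scaling, which are not divided by gene length and so are compared here between libraries and not between genes. The labelled cell type was checked by its markers: the 13 pan-neuronal markers with a row summed to 28872 and 29981 CPM under topotecan and 25591 and 23515 CPM under DMSO. Of these 13, 6 rose and 3 fell: Syt1, Rbfox3 and Map2, with log2 fold changes of -1.53, -0.78 and -0.47. Of 11 glutamatergic markers 7 rose and 1 fell, with sums of 1268 and 1282 CPM under topotecan against 709 and 726 CPM under DMSO. Of 8 tested interneuron markers 4 rose and 2 fell, with sums of 583 and 534 CPM under topotecan against 409 and 373 CPM under DMSO. Markers of other cells moved with the treatment. All 12 astrocyte markers fell, with summed levels of 117 and 127 CPM under topotecan against 4009 and 4061 CPM under DMSO. All 12 markers of the oligodendrocyte lineage fell as well, to 136 and 123 CPM under topotecan, against 4059 and 4367 CPM under DMSO, and Sox10 had no count in either topotecan library. Of 7 tested markers of radial glia and progenitors 6 fell, with sums of 12.5 and 11.9 CPM under topotecan against 363 and 342 CPM under DMSO, and Hes5 had no count under topotecan. Microglial, endothelial, epithelial and fibroblast or mural lists summed to less than 10 CPM in every library. In bulk RNA, fewer cells of a type and less RNA per cell cannot be told apart, and the part of these shifts in the results below was not tested.

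Across the family, 32 of the 56 genes fell under topotecan and 3 rose, by edgeR's quasi-likelihood test with Benjamini-Hochberg adjustment over all 12162 genes tested and a threshold of 0.05. In the same fit 23.5% of all genes fell and 16.2% rose. The share of family members that fell was therefore 57.1%, and the share that rose 5.36%. The median log2 fold change, topotecan over DMSO, was -0.58 over the family and -0.01 over all genes. In 41 members both topotecan libraries lay below both DMSO libraries, in 8 they lay above, and in 7 the libraries overlapped, against 36.9% of all genes below and 33.7% above. Of the members, 13 were lower by at least 2-fold. All 56 passed the low-count filter, 54 of them in both treatments; Pcdh15 and Cdh20 met its count minimum under DMSO alone.

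Cadherins and protocadherins were set side by side, as were clustered and non-clustered protocadherins. For comparison, 23.5% of all genes fell and 16.2% rose. Of the 11 cadherins 10 fell and 1 rose, and the median of their log2 fold changes was -0.78. Of the 45 protocadherins 22 fell, 2 rose and 21 did not pass, with a median of -0.46. The 10 non-clustered protocadherins had 7 that fell, 2 that rose and 1 that did not pass, with a median of -0.88, and the 35 clustered ones had 15 that fell, 0 that rose and 20 that did not pass, with a median of -0.39. The count of clustered members that fell was 8 in DESeq2, 7 without topotecan replicate 1 and 25 under scaling to short neuronal genes. At an unadjusted p under 0.05, 1 clustered member was higher, and DESeq2 and limma-voom called 0. These differences between classes are descriptions and were not tested. The summed level of the cadherins was 569 and 611 CPM under topotecan, against 1051 and 1128 CPM under DMSO, which is 54.2% of the DMSO mean. Non-clustered protocadherins summed to 226 and 214 CPM under topotecan, against 419 and 490 CPM under DMSO, or 48.5%. Clustered protocadherins kept a larger part of their summed level, with 430 and 483 CPM under topotecan against 540 and 594 CPM under DMSO, or 80.6%. A few genes carry much of these sums: without Cdh13 the cadherins stood at 60.6% of DMSO, and without Pcdh9 the non-clustered protocadherins stood at 54.9%.

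**Figure D1:**
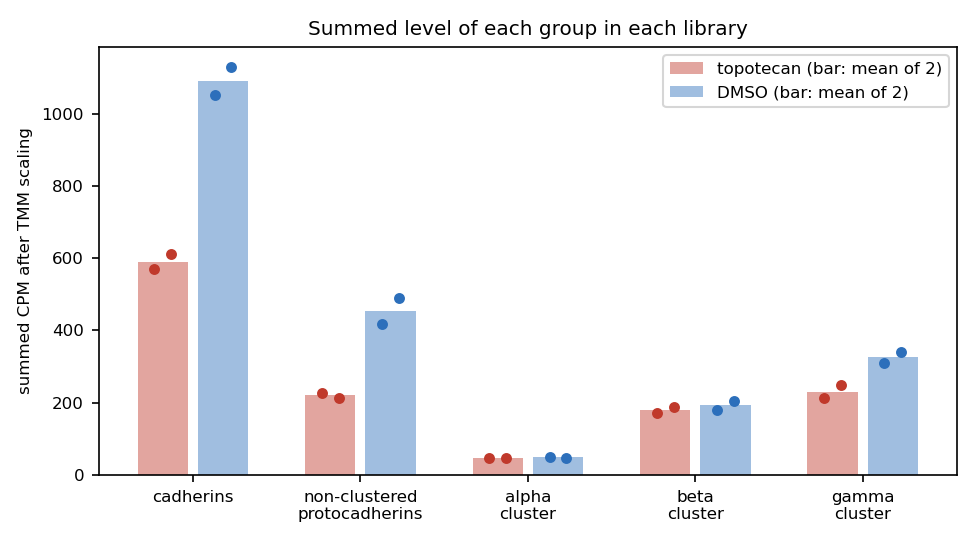
Summed CPM after TMM scaling (y axis) of the cadherins, the non-clustered protocadherins and the 3 protocadherin clusters, with points for the libraries and bars for the mean of 2 libraries per treatment, topotecan left of DMSO. Cadherins stood at 54.2% of DMSO, non-clustered protocadherins at 48.5% and the gamma cluster at 70.8%, while the alpha and beta clusters stood at 96.0% and 93.2%.

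Among the cadherins 10 of 11 fell, with Cdh15 as the one that rose, beside 23.5% of all genes that fell and 16.2% that rose. Cdh13, or T-cadherin, which is held in the membrane by a lipid anchor and has no cytoplasmic tail, had 328 and 369 CPM under topotecan, against 675 and 706 CPM under DMSO. Its log2 fold change was -0.99 (SE 0.08, adjusted p = 3.3e-07). It held 30.7% of all counts of the family, more than any other member. Cdh2, or N-cadherin, the classical cadherin of neuroepithelial junctions and of synapses, had 61.5 and 63.8 CPM under topotecan, against 101 and 108 CPM under DMSO. The groups did not overlap, and the log2 fold change was -0.74 (SE 0.09, adjusted p = 2.2e-05).

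Type II cadherins are close relatives of Cdh2 that often differ in expression between brain areas and neuron classes. All those kept by the rule fell. Cdh12 had 1.04 and 1.35 CPM under topotecan, against 5.87 and 8.27 CPM under DMSO, with a log2 fold change of -2.56 (SE 0.25, adjusted p = 2.4e-06). Its topotecan mean was 16.9% of its DMSO mean. Cdh10 had 62.3 and 63.4 CPM under topotecan, against 91.0 and 109 CPM under DMSO (log2 fold change -0.67, SE 0.10, adjusted p = 1.5e-04). Cdh7 had 19.5 and 18.6 CPM under topotecan, against 34.7 and 40.2 CPM under DMSO (log2 fold change -0.97, SE 0.12, adjusted p = 2.5e-05). For Cdh10 and Cdh7 both topotecan libraries lay close together and well under the lower DMSO library. Cdh6, Cdh9 and Cdh18 fell by 1.06, 0.72 and 0.78 on the log2 scale, with adjusted p-values of 1.7e-04, 0.0017 and 5.0e-04. Cdh6, Cdh9, Cdh10, Cdh12 and Cdh18 follow each other on rat chromosome 2 in RefSeq, with 2, 2, 0 and 0 coding genes starting in the gaps between them, and all of them fell.

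Cdh11 and Cdh20 are type II cadherins that are known from other cells as well as from neurons. Cdh11, first described in bone-forming and mesenchymal cells, had 40.5 and 35.6 CPM under topotecan, against 57.7 and 61.6 CPM under DMSO (log2 fold change -0.65, SE 0.11, adjusted p = 2.9e-04). The fibroblast and mural list, for comparison, summed to 3.65 and 4.72 CPM under topotecan and 8.27 and 9.04 CPM under DMSO. Of its 3 tested genes 2 fell and 1 rose, Lum, with a log2 fold change of 2.24. Cdh20, which in the mouse brain is found in glia more than in most neurons, had 9 and 13 counts under topotecan, against 113 and 76 counts under DMSO. The summed counts, scaled to depth, were 9.42 times higher under DMSO (95% exact binomial interval 6.04 to 15.4, for counting error only), and the fitted log2 fold change was -3.21 (SE 0.34, adjusted p = 4.6e-06). It was the cadherin with the most negative fold change, and it met the count minimum of the filter under DMSO alone. The astrocyte and oligodendrocyte lists fell in the same libraries, and their part in the Cdh20 result was not tested.

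Cdh15, or M-cadherin, best known from muscle precursors, went the other way. It had 11.4 and 11.9 CPM under topotecan, against 6.96 and 3.85 CPM under DMSO, so that it rose without overlap of the groups (log2 fold change 1.09, SE 0.22, adjusted p = 0.0014). The DMSO libraries differed more from each other than the topotecan libraries did. Cadherins of other tissues were close to absent from all libraries. Cdh1, or E-cadherin of epithelia, had 8 counts in all 4 libraries, Cdh19 of Schwann cell precursors had 18, and Cdh5 of blood vessels had 0. Just under the minimum of 40 summed counts were Pcdh12 with 34, Cdh3 with 33 and Cdh23 with 29, and the smallest sums kept were 199 for Pcdhb21 and 211 for Cdh20. Cdh23, the partner of Pcdh15 in the tip links of hair cells, had 0.0652 and 0.0397 CPM under topotecan and 0.399 and 0.642 CPM under DMSO. Below these were Cdh24 with 14, Cdh22 with 7, Pcdhb1 with 2, Cdh17 with 1 and Cdh16 with 0 summed counts.

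**Figure D2:**
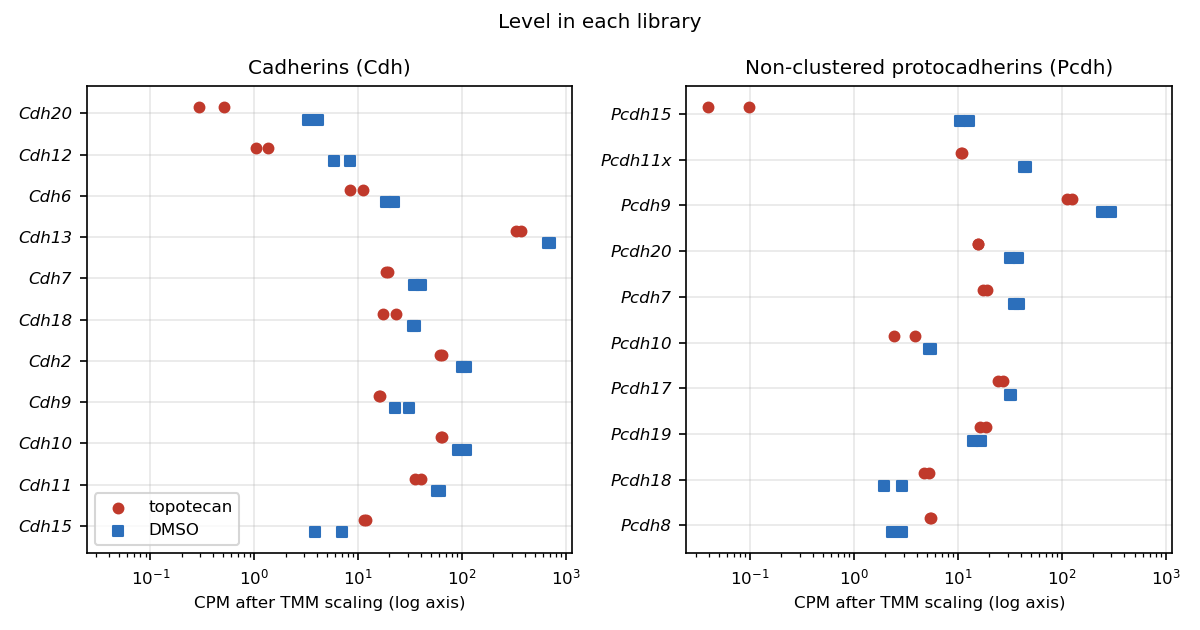
CPM after TMM scaling in each library (x axis, logarithmic) of the 11 cadherins and the 10 non-clustered protocadherins, with topotecan as circles drawn above DMSO as squares. The circles lie left of the squares for 10 cadherins and 7 protocadherins and right of them for Cdh15, Pcdh18 and Pcdh8, while those of Pcdh19 overlap.

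Of the 10 non-clustered protocadherins 7 fell and 2 rose, or 70% and 20%, beside 23.5% of all genes that fell and 16.2% that rose. The share that rose was near that of all genes. Pcdh15, which forms tip links with Cdh23 in hair cells and in the brain is chiefly expressed by oligodendrocyte precursors, had 3 and 1 counts under topotecan, against 291 and 295 counts under DMSO. Its summed counts, scaled to depth, were 161 times higher under DMSO (95% exact binomial interval 62.4 to 592). The fitted log2 fold change was -7.25 (SE 0.35, adjusted p = 1.0e-09). The 12 oligodendrocyte lineage markers had a median log2 fold change of -6.65 in the same fit, and their part in the Pcdh15 result was not tested.

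The delta-1 protocadherins Pcdh7, Pcdh9 and Pcdh11x all fell. Pcdh11x, an X-linked member, had 10.9 and 10.7 CPM under topotecan, against 43.5 and 45.3 CPM under DMSO, with a log2 fold change of -2.04 (SE 0.12, adjusted p = 9.6e-09). Pcdh9 had 125 and 113 CPM under topotecan, against 243 and 296 CPM under DMSO (log2 fold change -1.18, SE 0.10, adjusted p = 5.5e-07). Pcdh9 held 11.4% of the family's counts, second to Cdh13. Pcdh7, which binds a protein phosphatase through its tail, had 19.1 and 17.5 CPM under topotecan and 34.5 and 38.4 CPM under DMSO (log2 fold change -0.99, SE 0.12, adjusted p = 1.9e-05). In each of the 3 genes the groups lay apart by more than the replicates differed.

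The delta-2 protocadherins were split. Pcdh10, which recruits the WAVE actin regulator in growing axons, had 2.45 and 3.85 CPM under topotecan and 5.44 and 5.23 CPM under DMSO (log2 fold change -0.78, SE 0.23, adjusted p = 0.015). Pcdh17, which gathers presynaptic sites in the mouse basal ganglia, had 24.3 and 27.0 CPM under topotecan and 31.8 and 32.1 CPM under DMSO (log2 fold change -0.32, SE 0.11, adjusted p = 0.040). Both calls were lost when topotecan replicate 1 was left out, with adjusted p-values of 0.20 for Pcdh10 and 0.35 for Pcdh17. DESeq2 called neither gene. Pcdh17 also lost its call without topotecan replicate 2, with no low-count filter and in the fit with replicate number as a block. Pcdh8, whose product is made after synaptic activity and draws N-cadherin from the surface in rat neurons, had 5.42 and 5.51 CPM under topotecan and 2.32 and 2.87 CPM under DMSO. It rose, with a log2 fold change of 1.08 (SE 0.21, adjusted p = 9.4e-04). Pcdh18, which binds the adaptor Dab1, rose by a similar amount, with 4.67 and 5.31 CPM under topotecan and 1.92 and 2.87 CPM under DMSO (log2 fold change 1.07, SE 0.23, adjusted p = 0.0025). Pcdh19, an X-linked gene mutated in a form of epilepsy, had 18.8 and 16.1 CPM under topotecan and 13.9 and 16.7 CPM under DMSO. Its groups overlapped and it did not pass the test (log2 fold change 0.20, SE 0.14, adjusted p = 0.31).

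Pcdh20, a relative of the delta protocadherins, had 15.7 and 15.4 CPM under topotecan, against 31.9 and 37.5 CPM under DMSO, and fell with a log2 fold change of -1.16 (SE 0.13, adjusted p = 6.5e-06). On rat chromosome 15 Pcdh8, Pcdh17, Pcdh20 and Pcdh9 follow each other, with 3, 3 and 1 coding genes starting between them. The first of these 4 neighbours rose and the other 3 fell. Cdh4, Cdh8 and Pcdh1 have no row under these symbols and were not analysed here.

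The clustered protocadherins all lie on rat chromosome 18, and the 3 clusters differed in their counts of calls. Because the sequence next to each variable exon is used to choose the promoter, the stretch around the motif shared by the promoters of each cluster is shown, from the 250 bases before to the 50 bases after the start of transcription in RefSeq (build GRCr8, plus strand). The beta genes shown are the 2 with a promoter entry that fell and 3 that did not pass, and capitals mark GGTGGCGCT.
Pcdhb21 (fell, chr18:29492147-29492179): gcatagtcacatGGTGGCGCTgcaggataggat
Pcdhb14 (fell, chr18:29431807-29431839): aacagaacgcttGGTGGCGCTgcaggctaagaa
Pcdhb5 (did not pass, chr18:29302402-29302434): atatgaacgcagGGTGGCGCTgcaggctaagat
Pcdhb9 (did not pass, chr18:29379246-29379278): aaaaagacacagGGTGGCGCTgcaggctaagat
Pcdhb12 (did not pass, chr18:29413646-29413678): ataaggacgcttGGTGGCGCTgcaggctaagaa

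The gamma genes shown are 3 that fell and 2 that did not pass, and capitals mark CTCTNNGNGNCGCT, where N is any base.
Pcdhga2 (fell, chr18:29745076-29745113): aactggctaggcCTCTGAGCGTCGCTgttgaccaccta
Pcdhga11 (fell, chr18:29834467-29834504): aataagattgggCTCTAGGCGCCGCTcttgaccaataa
Pcdhgc3 (fell, chr18:29884059-29884096): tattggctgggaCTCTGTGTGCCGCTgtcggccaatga
Pcdhga10 (did not pass, chr18:29825807-29825844): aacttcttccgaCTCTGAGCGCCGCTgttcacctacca
Pcdhga8 (did not pass, chr18:29804993-29805030): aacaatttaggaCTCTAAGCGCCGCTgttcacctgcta

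Both stretches end in CGCT, the core of the element known from clustered protocadherin promoters, and CGCT alone stood in 60.9% of the 33469 rat promoters when both strands were searched. GGTGGCGCT, which contains CGCT, stood in 13 of 13 beta promoters available for the 15 beta members, in 0 of 11 gamma promoters, and in 0.457% of all promoters. CTCTNNGNGNCGCT, which also contains CGCT, stood in 10 of the 11 promoters available for the 16 gamma members, in 0 beta promoters and in 0.123% of all promoters. Pcdhga1, which did not pass the test, had the gamma promoter without it. Both strings were read from these promoters as what the genes of a cluster share, so their frequency within the clusters is no finding. In the gamma cluster all 8 members that fell and have a promoter entry held the string, as did 2 of the 3 that did not pass, and this is a description only. Among promoters of the cadherins and non-clustered protocadherins, 1 of 16 held GGTGGCGCT, that of Cdh15, and 0 held CTCTNNGNGNCGCT.

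In the gamma cluster all 16 members had a negative log2 fold change, between -1.29 and -0.35, and 11 of them fell. The median was -0.63, and in 15 of the 16 both topotecan libraries lay below both DMSO libraries. The share that fell was 68.8%, beside 23.5% of all genes, and 36.9% of all genes lay below without overlap. Pcdhgc3, the C-type member, which in the mouse is expressed in most neurons and not chosen at random, had 134 and 155 CPM under topotecan, against 184 and 196 CPM under DMSO (log2 fold change -0.39, SE 0.09, adjusted p = 0.0036). Its call was lost without topotecan replicate 1 (adjusted p = 0.11). Its identifier also carries the Entrez number of Pcdhga12, so its counts may join both genes. Pcdhga7 had 22.7 and 27.6 CPM under topotecan, against 34.0 and 43.4 CPM under DMSO (log2 fold change -0.62, SE 0.14, adjusted p = 0.0031). Pcdhga2, the member with the most negative fold change, had 2.48 and 4.01 CPM under topotecan, against 6.82 and 8.95 CPM under DMSO (log2 fold change -1.29, SE 0.23, adjusted p = 6.2e-04). In these 3 genes the lower DMSO library stood above the higher topotecan library. Pcdhga11, Pcdhga4 and Pcdhgb8 fell by 1.01, 1.20 and 1.07 on the log2 scale, and Pcdhgb5, Pcdhgb6, Pcdhga9, Pcdhga5 and Pcdhga3 fell by 0.56 to 0.79. Each of these last 5 lost its call when at least 1 of the libraries was left out. Pcdhgb4, Pcdhga1, Pcdhga10, Pcdhga8 and Pcdhgb7 did not pass, with log2 fold changes of -0.63 to -0.35. The gamma genes share their constant exons and are similar in sequence, and the sources do not say how reads in shared exons were counted, so the split between members is uncertain. The summed level, which such a split moves less, was 212 and 249 CPM under topotecan, against 310 and 341 CPM under DMSO, or 70.8% of the DMSO mean and 63.2% without Pcdhgc3. Between 5 and 11 gamma members fell when each library was left out in turn, with 5 when topotecan replicate 1 was left out, and DESeq2 called 6.

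In the beta cluster 4 of 15 members fell and 0 rose, and the median of the log2 fold changes was -0.17. The share that fell, 26.7%, was near the 23.5% of all genes. The count that fell was 8 under scaling to short neuronal genes, 2 in DESeq2, 2 without topotecan replicate 1 and 1 without DMSO replicate 2. Pcdhb21 had 1.11 and 1.19 CPM under topotecan, against 1.89 and 3.55 CPM under DMSO (log2 fold change -1.23, SE 0.33, adjusted p = 0.0097). Pcdhb22 had 2.28 and 2.22 CPM under topotecan, against 5.22 and 5.31 CPM under DMSO (log2 fold change -1.22, SE 0.20, adjusted p = 3.3e-04). Replicates of Pcdhb22 were nearly equal, while the DMSO libraries of Pcdhb21 were far apart and its call was lost without DMSO replicate 2 (adjusted p = 0.15). Pcdhb11 and Pcdhb14 fell by 0.53 each on the log2 scale, and each lost its call without topotecan replicate 1 and without DMSO replicate 2, Pcdhb11 also without topotecan replicate 2. The best covered beta genes hardly differed in level. Pcdhb5 had 37.7 and 41.3 CPM under topotecan and 39.6 and 41.5 CPM under DMSO, with a log2 fold change of -0.04 (SE 0.11). Pcdhb19 had 25.8 and 28.2 CPM under topotecan and 28.6 and 32.0 CPM under DMSO, and Pcdhb9 had 27.4 and 32.0 CPM under topotecan and 25.1 and 27.1 CPM under DMSO. Neither passed the test, with log2 fold changes of -0.17 (SE 0.12) and 0.19 (SE 0.12).

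The 2 most positive beta genes were Pcdhb12 and Pcdhb7, neither of which passed. Pcdhb12 had 10.1 and 12.3 CPM under topotecan and 7.58 and 9.47 CPM under DMSO (log2 fold change 0.40, SE 0.17, adjusted p = 0.080). Pcdhb7 had 9.56 and 9.60 CPM under topotecan and 6.71 and 8.61 CPM under DMSO (log2 fold change 0.33, SE 0.17, adjusted p = 0.14). Both lay above DMSO without overlap, and both passed as higher when DMSO replicate 2 was left out. Pcdhb2 and Pcdhb20 had log2 fold changes of -0.60 and -0.46 and did not pass. Pcdhb3, Pcdhb4, Pcdhb8 and Pcdhb10 lay between -0.18 and 0.05. The summed beta level was 172 and 187 CPM under topotecan and 180 and 205 CPM under DMSO, or 93.2%, and these groups overlapped. At an unadjusted p under 0.05, 1 beta member was higher, and DESeq2 and limma-voom called 0.

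In the alpha cluster 0 of 4 identifiers fell and 0 rose, and the same held at an unadjusted p under 0.05, in DESeq2 and in limma-voom, while scaling to short neuronal genes, given further down, called 1 lower. Pcdha2 had 14.6 and 15.9 CPM under topotecan and 17.9 and 14.4 CPM under DMSO, and overlapped. The other 3 identifiers are all named Pcdha4 in the table, and the most positive of them carries 10 transcripts and 11 Entrez numbers, so its counts may hold several alpha genes. Their log2 fold changes ran from -0.18 to 0.13. The summed alpha level was 45.9 and 47.2 CPM under topotecan and 49.2 and 47.8 CPM under DMSO, or 96.0%. The ratio of the gamma sum to the beta sum was 1.23 and 1.33 in the topotecan libraries, against 1.72 and 1.66 in the DMSO libraries. Both topotecan libraries thus held fewer gamma counts per beta count than either DMSO library, a ratio that does not depend on how the libraries were scaled.

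**Figure D3:**
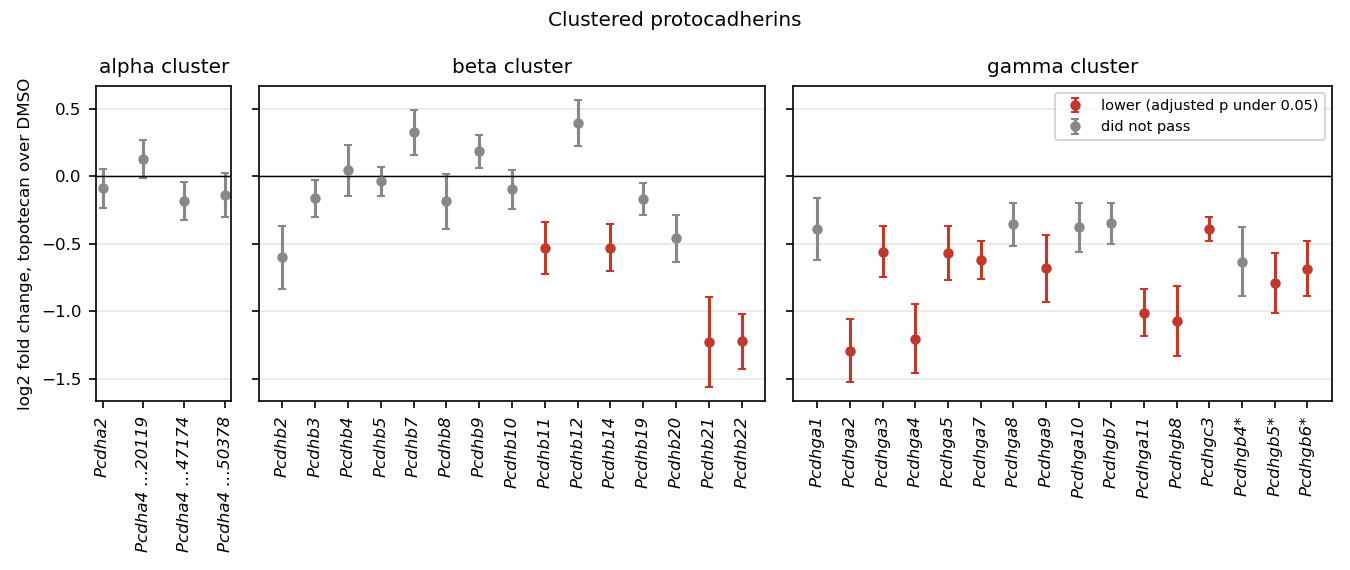
Log2 fold change, topotecan over DMSO (y axis), of the 35 clustered protocadherins in the order of the genes on the chromosome where RefSeq places them (x axis; an asterisk marks a gamma gene with no place there, and alpha identifiers have no order), with error bars of 1 SE over 2 libraries per treatment. All 16 gamma genes lie below 0, with 11 that fell, while the beta genes lie on both sides of 0, with 4 that fell, and the alpha genes stay between -0.18 and 0.13.

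Since the drug was used to lower long genes, the length of the gene on the chromosome, its span, was set beside the fold changes. RefSeq gave a span for 49 of the 56 members and for 11634 of the 12162 genes tested, and none for the alpha identifiers, Pcdhgb4, Pcdhgb5 and Pcdhgb6. All 6 members of at least 500 kb fell, as did 78.2% of the 174 genes of that class, with medians of -1.61 for members and -1.19 for the class. These were Pcdh15 (1499 kb), Cdh12 (1234 kb), Cdh13 (1038 kb), Cdh18 (1002 kb), Pcdh9 (898 kb) and Pcdh11x (695 kb). All 4 members of 200 to 500 kb fell too, beside 56.2% of the class, with medians of -0.86 and -0.55. From 100 to 200 kb 9 of 12 members fell, beside 31.8% of the class, with medians of -0.63 and -0.19.

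Shorter members were more mixed. From 30 to 100 kb 6 of 8 fell, beside 24.7% of the class. Pcdhga4 is among the 6 by its RefSeq entry of 34.1 kb, although it starts 158 kb before the end of the gamma cluster. From 10 to 30 kb 0 of 3 fell and 2 rose, Cdh15 (22.8 kb) and Pcdh18 (14.0 kb), beside 19.5% of the class that fell and 20.2% that rose. Under 10 kb 5 of 16 fell, beside 15.7% of the class, and 1 of 16 rose, Pcdh8 (4.57 kb), beside 26% of the class. The median of the members lay below that of all genes in every class but that of 10 to 30 kb. Pcdh20 spans 6.26 kb and had a log2 fold change of -1.16, where the median of all genes under 10 kb was 0.15, and Pcdhb21 (2.93 kb) and Pcdhb22 (6.11 kb) also fell by more than 1 on the log2 scale. Among the members of at least 500 kb the order of span was not the order of the fold changes: Cdh18, of 1002 kb, had -0.78, and Pcdh11x, of 695 kb, had -2.04.

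As a description, Spearman's rho between span and log2 fold change was -0.58 over the 49 members, -0.57 over the 11 cadherins, -0.76 over the 10 non-clustered protocadherins and -0.28 over all 11634 genes. The genes share their libraries, and neighbours in a cluster share exons. Within the clusters the relation was weak, with rho of -0.07 over 15 beta genes, which span 2.34 to 13.3 kb, and 0.13 over 13 gamma genes, whose spans run from the variable exon to the shared last exon. Place in the gamma cluster, counted along the chromosome, had a rho of 0.15 with the fold change over 13 genes, and place in the beta cluster had a rho of -0.42 over 15 genes.

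**Figure D4:**
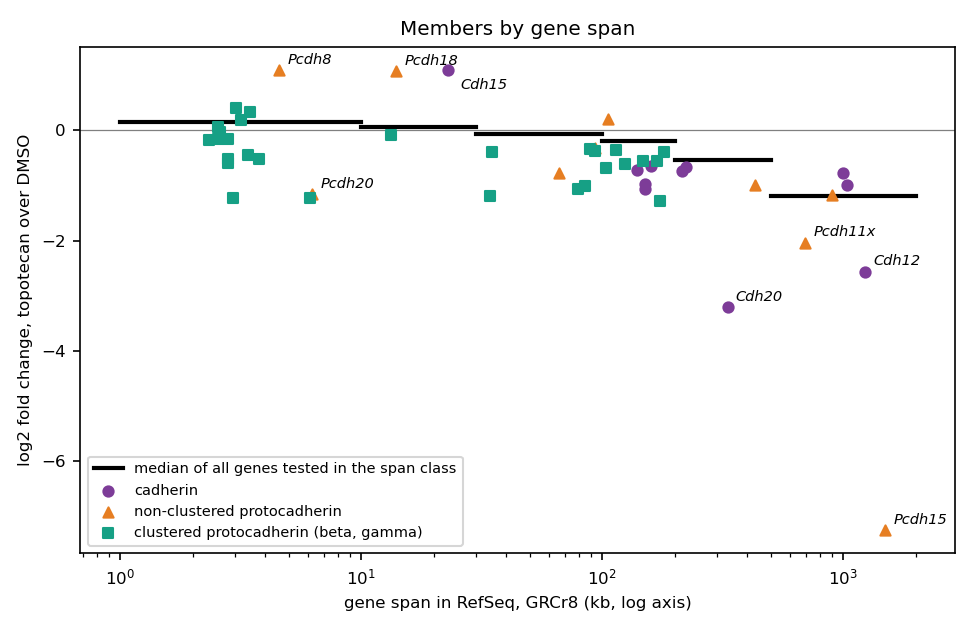
Log2 fold change, topotecan over DMSO (y axis), against gene span in RefSeq build GRCr8 (x axis, kb, logarithmic) for the 49 members with a span, by class, with black bars for the median of all genes tested in each span class. All 10 members of 200 kb or more lie below 0, while Pcdh8, Pcdh18 and Cdh15 lie above 0 and Pcdh20 lies well below the bar of its class.

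The proteins that cadherins and protocadherins work with were counted from lists written from general knowledge. Over all genes tested, for comparison, 23.5% fell and 16.2% rose. Of 13 tested catenins and junction partners 7 fell and 1 rose, and their log2 fold changes had a median of -0.56. Ctnna2, alpha-N-catenin, which ties cadherins of neurons to actin, averaged 27.6 ± 0.677 CPM under topotecan and 114 ± 6.11 CPM under DMSO (SD, n = 2 each), with a log2 fold change of -2.05 (SE 0.10, adjusted p = 1.0e-09 in edgeR). Ctnna1, its counterpart in most other tissues, had 25.8 and 25.6 CPM under topotecan and 64.8 and 63.1 CPM under DMSO (log2 fold change -1.32, SE 0.10, adjusted p = 2.1e-07). Jup, or plakoglobin, was the member that rose, by a log2 fold change of 0.63.

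Among 13 tested members of the wider cadherin superfamily 4 fell and 2 rose, with a median of -0.21. The shares over all genes were 23.5% that fell and 16.2% that rose. The giant cadherin Fat1 fell by 1.34 on the log2 scale (SE 0.15, adjusted p = 9.6e-06) and the calsyntenin Clstn2, a synaptic protein with cadherin repeats, fell by 1.70 (SE 0.22, adjusted p = 2.8e-05). Dchs1, the partner of Fat4, and the desmosomal Dsc2 rose, with log2 fold changes of 0.63 and 1.16. Clstn3, the most abundant of this list, had 402 and 443 CPM under topotecan and 457 and 415 CPM under DMSO, and overlapped. Of 15 signalling partners of protocadherins 6 fell and 1 rose, with a median of -0.28. Cyfip2, a subunit of the WAVE complex, had a log2 fold change of -0.68 (SE 0.09, adjusted p = 2.9e-05), the kinase Fyn -0.70 (SE 0.11, adjusted p = 1.5e-04), and Brk1, a small WAVE subunit, rose by 0.25.

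Regulators of the protocadherin clusters had few calls, where 23.5% of all genes fell and 16.2% rose. Of 16 tested, 2 fell and 1 rose, with a median of -0.13: the cohesin subunits Stag1 and Stag2 fell, with log2 fold changes of -0.45 and -0.37, and the histone methyltransferase Setdb1 rose by 0.24. These calls were not stable: 1 regulator was lower without topotecan replicate 1 or without DMSO replicate 2, 0 without topotecan replicate 2 and 5 without DMSO replicate 1, and 0 were higher without either topotecan replicate, under the replicate block or with library totals only. Under scaling to short neuronal genes 8 were lower and 0 higher. Ctcf, which binds the promoters and enhancers of the clusters, had a log2 fold change of 0.04, and Smc1a, the most abundant of the list, 0.03. Neither passed. Of 5 tested components of proteases that cut cadherins 1 rose, the presenilin Psen2 (log2 fold change 0.61, adjusted p = 4.2e-04), and 0 fell, also at an unadjusted p under 0.05, in DESeq2 and in limma-voom. Ncstn, the most abundant of them, had -0.13 and did not pass.

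With libraries scaled to 12 short neuronal genes in place of TMM, of which 6 rose and 0 fell in the TMM fit, the median over all genes moved to a log2 fold change of -0.34, from -0.01, and 39.3% of all genes then fell. Under that scaling 42 members fell and 3 rose, with Cdh15, Pcdh8 and Pcdh18 still the ones that rose. Of the 35 clustered members 25 then fell, all 16 gamma members among them, and none of the genes that rose in the 5 partner lists passed as higher.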

How the data were processed

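The authors deposited 1 table of raw whole-number counts per gene for the 4 libraries, with Ensembl identifiers and symbols. STAR and edgeR were used, per the submitters' processing notes, without version numbers. How shared exons were counted, the use of strand, the build and the annotation were not given in the sources used here. A small-RNA kit made the libraries, per the labels' protocols, although the table counts genes. In the 22641 rows, 792 identifiers were repeated with equal counts and taken once; 14 rows had no gene name. The rule, the gene lists and the motifs were chosen with earlier results of these data known.

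Counts were tested with edgeR 4.0.16 in R 4.3.3 (quasi-likelihood test, treatment as the only term, TMM, filterByExpr with a minimum count of 10 and a total of 15, 2 residual degrees of freedom). Benjamini-Hochberg adjustment ran over 12162 genes, with a threshold of 0.05. SE is the size of the log2 fold change over the root of F, and the biological coefficient of variation was 0.083. Replicates differed by more than sampling noise (chi-square per degree of freedom 9.34 for topotecan and 13.0 for DMSO), so each was kept as 1 sample. The promoter strings are the longest string common to the beta promoters, up to CGCT, and the letters shared by the best matching windows of CGCT and the 10 bases before it in the gamma promoters. Intervals on ratios of summed counts are exact binomial at a level of 0.95 and cover counting error only. Every member may be named; values in each library are given for the 12 with the highest mean CPM, the 6 most negative and 6 most positive, those nearest the minimum of 40 counts, and members known from other cell types, and of each gene list for the 2 with the smallest p and the most abundant. Syt1, Rbfox3, Map2, Lum, Jup, Dchs1, Dsc2, Brk1, Setdb1 and Ctcf were added after their values were seen. So were members named where a class is accounted for in full. Spans, neighbours and promoters came from RefSeq GRCr8; since the authors' build is not known, their coordinates apply to the printed sequences alone. Alternatives were limma-voom 3.58.1, DESeq2 1.42.0, other scalings, filters, a replicate block and leaving out each library.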

Additional observations from a re-analysis of the deposited data

How the results depend on the processing

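Over 13 alternatives, 21 of the 32 members that fell and 3 of 3 that rose kept their calls in each alternative that tests them. These include all 10 cadherins that fell, 5 of 7 non-clustered protocadherins, 5 of 11 gamma and 1 of 4 beta genes. Of the 35 called members, 11 lost the call when some library was left out: without topotecan replicate 1 the family had 22 that fell, and Pcdh10, Pcdh17, Pcdhb11, Pcdhb14, Pcdhga3, Pcdhga5, Pcdhga9, Pcdhgb5, Pcdhgb6 and Pcdhgc3 were lost. No direction reversed. The causes of these shifts were not tested.

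Scaling to short neuronal genes gave 4779 genes lower and 239 higher, so that 95.2% of calls were lower against 59.2% in the TMM fit. Medians became -1.12 for cadherins, -0.78 for protocadherins, -0.73 for clustered and -1.21 for non-clustered protocadherins, and 25 clustered members fell. Of the gene lists, 8 of the wider superfamily, 12 signalling partners, 8 cluster regulators and 3 proteases then fell, and 0 rose in these or among the catenins. DESeq2 called 23 members lower, with 13 protocadherins and 8 clustered ones, and 1 superfamily gene higher. With no low-count filter 1 clustered member was higher. Signalling partners had 2 higher with no filter, in limma-voom and under the replicate block, and regulators had 0 higher under the block and with library totals only.

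Leaving out each library in turn gave 1208 to 2470 genes higher (1208 without topotecan replicate 1 and 1260 without topotecan replicate 2), 3 to 5 members higher, 12 to 21 protocadherins lower and 2 to 4 higher, and 7 to 14 clustered members lower and 0 to 2 higher. The cadherin median ran from -0.92 to -0.74. In the lists, superfamily genes higher numbered 1 in each case (1 to 1), signalling partners higher 1 to 2, regulators lower 0 to 5 and higher 0 to 1, and proteases lower 0 to 1.

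Replicate numbers are shared by the treatments, but deviations of same-numbered libraries had a correlation of -0.071 over all genes with only 2 pairs, so the numbers were not taken to pair the samples. With replicate number as a block 30 members fell and 3 rose, 14 clustered members fell, and 2746 genes fell and 1822 rose in all. Pcdh17 and Pcdhga9 were lost under the block. With 2 libraries per treatment, depth limits Pcdh15 and Cdh20 the most, since the topotecan libraries hold 3 and 1 and 9 and 13 of their counts.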
